A study of Bos taurus with 4 samples.

Results

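PRG4, SOST and RIMKLA were followed through subcutaneous fat of Qinchuan cattle, a Chinese beef breed. The 3 genes were taken by name: each was found by the symbol or full name in the header of the sequence that stands for it, and they were chosen by their low RPKM in steers against bulls (PRG4, RIMKLA) or heifers (SOST) in earlier results of these data. They are 3 of the 5386 gene symbols found among 36373 UniGene entries, an entry being 1 sequence that stands for a group of transcript sequences. Tissue came from fetuses of 200 to 250 days (ATFB), and from adults of 18 to 24 months by the labels: intact males (adult bull, ATAB), females (adult heifer, ATAH) and castrated males (adult steer, ATAS). The labels give no sex for the fetuses. No group carried a transgene or received an agent by the labels. Each group was 1 pool of 5 animals sequenced as 1 library, so nothing below could be checked against replicates, and castration, age and sex could not be separated from what else set the pools apart. In pooled tissue, fewer cells of a type and less RNA per cell cannot be told apart.

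PRG4 encodes lubricin, also called proteoglycan 4, a heavily glycosylated mucin-like protein that coats joint cartilage, tendon and synovial surfaces and binds hyaluronan, CD44 and Toll-like receptors. SOST encodes sclerostin, a secreted protein made mainly by osteocytes, which binds the co-receptors LRP5 and LRP6 and so blocks canonical Wnt signalling, with LRP4 as its anchor. RIMKLA encodes an ATP-grasp ligase that joins N-acetylaspartate to glutamate and is best known in brain, where the dipeptide acts at synapses. Wnt signalling restrains adipocyte formation, which is why Wnt inhibitors are studied in fat.

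Each gene had exactly 1 entry that named it. The PRG4 entry (Bt.62170) was 4258 bases long, with the coding part at bases 22 to 3609 and 649 bases after it, and 45.9% of its bases were G or C. The SOST entry (Bt.13086) was 639 bases long, was coding sequence from its first base to its last, and had a G and C content of 69.0%. The RIMKLA entry (Bt.43032), a predicted transcript, was 1278 bases long, with 1023 coding bases and 255 after them, and 54.5% G and C. Chromosome positions were not given with the entries, and none are printed. A stretch of PRG4, bases 1480 to 1719 of the entry, is printed because it lies in the repeated threonine and proline coding part that carries lubricin's sugars. A unit of 24 bases occurred 7 times without a change in the coding part, between bases 1198 and 1794, and the 4 copies in this stretch are in capitals. The first 180 bases of SOST and its last 60 (580 to 639) show that this short entry runs from start codon to stop codon, both in capitals.
PRG4: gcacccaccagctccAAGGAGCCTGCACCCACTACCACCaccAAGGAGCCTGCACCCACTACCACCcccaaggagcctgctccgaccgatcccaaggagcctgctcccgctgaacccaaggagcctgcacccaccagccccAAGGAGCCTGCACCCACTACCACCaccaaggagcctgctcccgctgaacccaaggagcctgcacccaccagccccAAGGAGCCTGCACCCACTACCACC
SOST: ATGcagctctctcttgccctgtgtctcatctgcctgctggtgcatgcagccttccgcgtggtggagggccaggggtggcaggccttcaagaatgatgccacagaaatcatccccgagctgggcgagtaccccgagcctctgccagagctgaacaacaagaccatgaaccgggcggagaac
SOST end: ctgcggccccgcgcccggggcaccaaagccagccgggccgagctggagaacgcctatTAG

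The closest relative of RIMKLA is RIMKLB, a second ligase of the same kind, and the stretch of their coding parts with the fewest differences shows how far reads of 1 could be taken for the other. The 90 bases at 509 to 598 of the RIMKLA entry and at 900 to 989 of the RIMKLB entry (Bt.28956) differed at 17 places, which are in capitals. Over 701 aligned coding bases the 2 genes were 74.8% identical and the longest run without a difference was 17 bases.
RIMKLA: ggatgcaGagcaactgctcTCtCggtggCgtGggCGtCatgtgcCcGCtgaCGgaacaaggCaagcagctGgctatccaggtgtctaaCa
RIMKLB: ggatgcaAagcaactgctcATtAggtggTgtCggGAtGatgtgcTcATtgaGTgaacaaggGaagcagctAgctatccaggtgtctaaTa

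No stretch of 90 bases of SOST or RIMKLA was found in any other of the sequences searched. PRG4 shared 205 bases, 3661 to 3865, after its coding part, with the entry of TPR (Bt.1386), a nuclear pore protein whose sequence there runs on the opposite strand. In the RefSeq annotation of ARS-UCD2.0, TPR is the next protein-coding gene to PRG4 and overlaps it. Of 4169 windows of 90 bases in the PRG4 entry, 116 also occurred in another entry and 153 occurred more than once within PRG4, and reads from these could match more than 1 place. The library protocol in the study's methods has no step that marks strand, so reads from the 2 strands of the overlap could not be told apart. TPR had 14.6 RPKM in fetuses, 14.2 in bulls, 18.2 in heifers and 19.9 in steers. At its mean depth, TPR would have 45.7 reads over the shared bases in fetuses, 47.1 in bulls, 58.2 in heifers and 63.4 in steers, beside 10019, 1997, 184 and 143 reads of the whole PRG4 entry. The part of this overlap in the counts of PRG4 was not tested, and relative to those counts it was largest in heifers and steers.

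The libraries held 15.3 M (ATFB), 16.1 M (ATAB), 15.6 M (ATAH) and 15.6 M (ATAS) counted reads, and between 31003 and 31883 entries had a read. Levels are in RPKM, reads per kilobase of entry scaled to the library total, with an exact Poisson 95% interval that covers counting error only. A count of 3 reads on a sequence of 1 kb equals 0.186 to 0.196 RPKM.

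PRG4 was the most abundant of the 3 genes in fetuses and bulls, and was highest in fetuses, then in bulls, with heifers and steers far below. It had 10019 reads in fetuses, 1997 in bulls, 184 in heifers and 143 in steers. These are 154 RPKM (151 to 157) in fetuses, 29.0 (27.8 to 30.3) in bulls, 2.77 (2.39 to 3.20) in heifers and 2.16 (1.82 to 2.54) in steers. The fetal and bull intervals stood apart from all others, while the heifer and steer intervals overlapped. Among gene symbols with a read, PRG4 was number 92 from the top of 4915 in the fetal library and number 3393 of 5037 in the steer library. Reads covered 97.5% of the PRG4 entry in fetuses, 92.5% in bulls, 70.4% in heifers and 62.3% in steers, so the low counts were spread over more than one part of the transcript. The highest level was 71.4 times the lowest.

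SOST had 1 high library, that of the heifers. It had 7 reads in fetuses, 83 in bulls, 657 in heifers and 37 in steers. The levels were 0.717 RPKM (0.288 to 1.48) in fetuses, 8.04 (6.41 to 9.97) in bulls, 65.9 (61.0 to 71.2) in heifers and 3.72 (2.62 to 5.13) in steers. None of the 4 intervals overlapped, and the fetal library, not the steer library, was the lowest. SOST was number 244 of 5049 symbols in heifers, number 1728 of 4976 in bulls, number 2972 of 5037 in steers and number 3699 of 4915 in fetuses. The ATAH level was 92.0 times that in ATFB. Coverage of the entry was 42.7%, 99.1%, 99.5% and 85.8% in ATFB, ATAB, ATAH and ATAS.

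RIMKLA was the least abundant of the 3 in each adult library, lay above SOST in fetuses, and had its highest level in bulls. Its reads numbered 31 in fetuses, 125 in bulls, 20 in heifers and 12 in steers. The levels were 1.59 RPKM (1.08 to 2.25), 6.06 (5.04 to 7.22), 1.0 (0.613 to 1.55) and 0.604 (0.312 to 1.05) in the same order. The bull interval lay above the other 3, the heifer interval overlapped both the fetal and the steer interval, and the fetal interval lay just above that of the steers. The highest level was 10.04 times the lowest, and coverage ran from 59.6% in ATFB to 95.9% in ATAB.

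**Figure D1:**
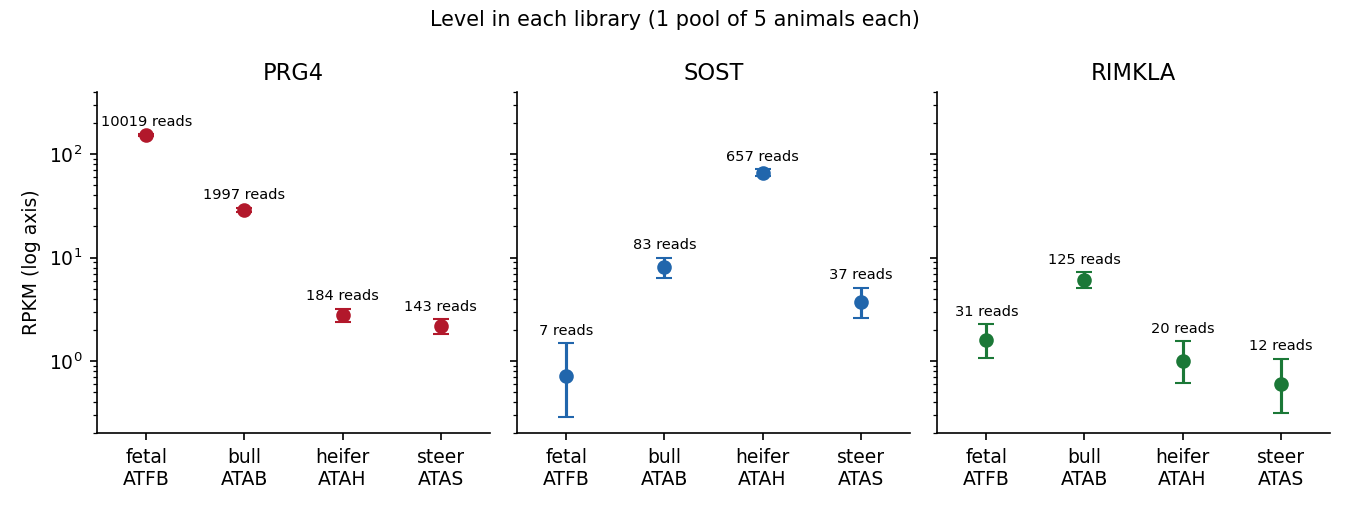
RPKM (log axis) of PRG4, SOST and RIMKLA in the 4 libraries, each 1 pool of 5 animals; bars are exact Poisson 95% intervals and the read count stands above each point. PRG4 was highest in the fetal library (154), SOST in the heifer library (65.9) and RIMKLA in the bull library (6.06).

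The description "low in steers" fitted the 3 genes only in part. The steer library was the lowest of 4 for PRG4 and RIMKLA, but with heifers close by, and for SOST the fetal library was lower. Among 3948 symbols with at least 100 reads over the 4 libraries, 8.31% had their lowest level in ATAS and 51.9% in ATFB. The full order of PRG4, from ATFB down through ATAB and ATAH to ATAS, was that of 2.79% of these symbols. The order of SOST (ATAH, ATAB, ATAS, ATFB) was that of 4.13%, and that of RIMKLA (ATAB, ATFB, ATAH, ATAS) of 0.963%. A span of at least 10 times between the highest and lowest library, with levels under 0.2 RPKM set to that value, was seen in 6.36%.

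The comparison of steers with bulls asks what differs between castrated and intact males. This comparison chose PRG4 and RIMKLA, so their ratios are a description. PRG4 was 13.5 times lower in ATAS than in ATAB, a log2 ratio of RPKM of -3.75 (95% Clopper-Pearson interval -4.00 to -3.50). RIMKLA was 10.04 times lower, with a log2 ratio of -3.33 (-4.32 to -2.47). SOST, which this comparison did not choose but which shares its libraries, had a log2 ratio of -1.11 (-1.71 to -0.54). Over all entries with at least 10 reads in this pair the median log2 ratio was 0.33, so the 3 genes lay further below the typical entry than their own ratios say.

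PRG4 and RIMKLA held the 2 lowest places among 3245 symbols with 100 or more reads in ATAB or ATAS. The next were KCNK12, a potassium channel, with 17 reads in ATAS and 153 in ATAB (log2 ratio -3.12), and ATP12A, a proton and potassium pump, with 54 and 466 reads (-3.06). The steps between these 4 ratios were smaller than the interval of RIMKLA.

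The comparison of steers with heifers sets castrated males beside females. It chose SOST, which was 17.7 times lower in ATAS than in ATAH (log2 ratio -4.15, interval -4.67 to -3.67). PRG4 differed little between these libraries, with a log2 ratio of -0.36 (-0.69 to -0.04), and the interval of RIMKLA included no difference (-0.73, -1.90 to 0.37). SOST was the second lowest of 3255 symbols with 100 or more reads in either library. Below it lay XIST, the RNA of the inactive X chromosome, with 98 reads in ATAS and 9978 in ATAH (-6.67). Above it lay GREB1, a gene known for its response to estrogen, with 27 and 311 reads (-3.52), and HMGCS1, an enzyme of cholesterol synthesis, with 565 and 5753 (-3.34).

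The 2 intact adult groups differed in all 3 genes, in 2 directions. From ATAB to ATAH, PRG4 was 10.5 times lower (log2 ratio -3.39, interval -3.62 to -3.17) and RIMKLA was 6.03 times lower (-2.59). SOST was 8.20 times higher in heifers than in bulls (log2 ratio 3.04, interval 2.70 to 3.38). The heifer and steer libraries thus stood on the same side of the bull library for PRG4 and RIMKLA, and on opposite sides for SOST.

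**Figure D2:**
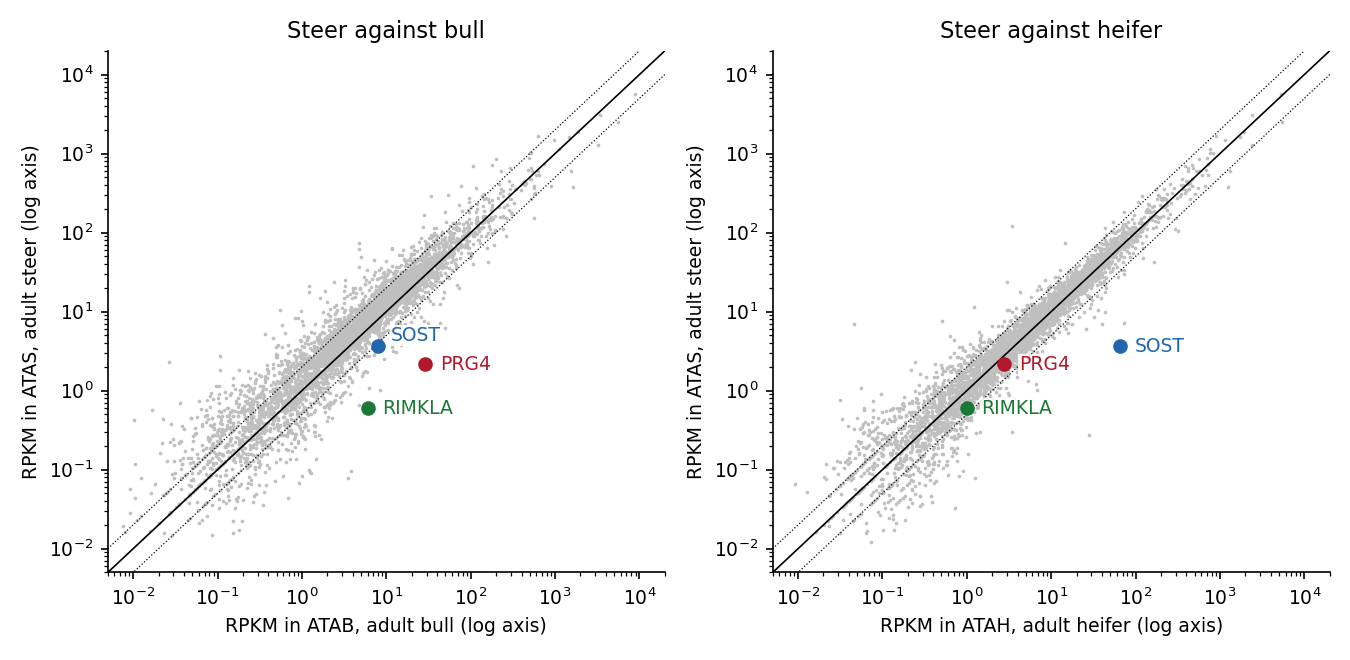
RPKM in the steer library against the bull (left) and heifer (right) libraries on log axes; grey points are gene symbols with a read in both, the solid line marks equal levels and the dotted lines a 2-fold difference. Against bulls, PRG4 (2.16 and 29.0 RPKM) and RIMKLA (0.604 and 6.06) lie far under the line, and against heifers SOST does (3.72 and 65.9).

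Genes that work with lubricin did not move as a block with PRG4. CD44, the hyaluronan receptor that lubricin also binds, had 184 RPKM in fetuses, 74.4 in bulls, 41.1 in heifers and 47.4 in steers. CD44 shared the order of PRG4 down to the heifers, over a far smaller span, and was slightly higher in steers than in heifers (log2 ratio 0.20, 0.10 to 0.31). TLR4, a receptor of innate immunity, stayed between 11.1 RPKM (ATAB) and 15.1 RPKM (ATAS). TLR2 had no named entry and was not analysed here.

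An entry was called different between 2 libraries at a false discovery rate of 0.001 or less, from an exact two-sided binomial test of its reads, with a log2 ratio of at least 1 in size. Such calls compare the libraries and not the conditions. Between ATAS and ATAB, 8.72% of 33724 entries were called, 6.86% higher and 1.87% lower in steers. When scaled by edgeR's TMM factors, which centre the ratios on the typical entry, the 2313 higher and 629 lower calls became 1127 and 1162. Between ATAS and ATAH 3% were called (1.52% higher, 1.48% lower), and between ATAH and ATAB 5.37% (4.14% higher, 1.23% lower). The last split, 1403 higher and 416 lower, became 693 and 728 with TMM. The gene lists below hold 1 entry per symbol, and such entries were called more often: 11.7% higher and 2.51% lower in ATAS against ATAB, 2.74% and 1.51% in ATAS against ATAH, and 5.17% and 2.17% in ATAH against ATAB. These are the shares of symbols set beside the counts of list members.

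Of the 43 genes listed as lubricin partners, hyaluronan genes and proteoglycans, 27 had a named entry and 25 had a read in ATAS or ATAB. Of these 25, 4 were called higher and 4 lower in ATAS, beside 11.7% and 2.51% of symbols, with a median log2 ratio of 0.37 beside 0.33 for all entries. The lower ones included VCAN, the large proteoglycan versican, with 1006 reads in ATAS and 8271 in ATAB (log2 ratio -2.99), KERA, the small proteoglycan keratocan, with 126 and 506 (-1.95), and HAS2, a hyaluronan synthase, with 144 and 577 (-1.95). The higher ones included the hyaluronidases HYAL2 (log2 ratio 2.41) and HYAL1 (1.35) and the syndecan SDC4 (1.26). With TMM scaling, 2 were called higher and 4 lower. Between ATAS and ATAH 3 were called higher, namely KERA (1.46), FMOD (1.36) and PRELP (1.07), and HAS2 was called lower (-1.31), beside 2.74% and 1.51% of symbols. KERA thus shared PRG4's low levels in both heifers and steers, but was higher in steers than in heifers, where PRG4 was not.

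Several genes of tissues where lubricin is made were higher in the steer library, where PRG4 was lowest. Of 24 tendon, fascia, cartilage and synovial lining genes, 16 had an entry and 14 a read in ATAS or ATAB, of which 8 were called higher and 0 lower in ATAS (7 and 0 with TMM, 8 and 0 with scaling on ACTB), beside 11.7% and 2.51% of symbols. The median log2 ratio of those with 10 or more reads was 2.30, and the other 6 of the 14 were not called, among them HTRA1 (-0.12) and MATN2 (-0.65). Between ATAS and ATAH 6 of 15 were called higher and 0 lower, under each of these 3 scalings, beside 2.74% and 1.51% of symbols. In ATAH against ATAB, the pair in which PRG4 was 10.5 times lower, 2 of 15 were called higher and 1 lower (2 and 2 with TMM), beside 5.17% and 2.17% of symbols. MKX, a transcription factor of tendon, had 184 reads in fetuses, 3 in bulls, 6 in heifers and 50 in steers. CRTAC1, a cartilage acidic protein, had 12, 36, 225 and 361 reads in the same order, and ANGPTL7 had 188, 1, 9 and 85. COMP, a matrix protein of cartilage and tendon, had 30, 96, 47 and 434 reads. MKX, ANGPTL7 and COMP were called higher in steers than in both bulls and heifers, and CRTAC1 than in bulls alone, with a log2 ratio of 0.69 against heifers. The summed level of the 16 genes was 538 RPKM in fetuses, 188 in bulls, 143 in heifers and 216 in steers. HTRA1 alone made up 351, 164, 115 and 150 RPKM of these sums. Of the defining cartilage genes, COL2A1 had 1459 reads in fetuses, 2 in bulls, 14 in heifers and 10 in steers, COL11A2 had 992, 11, 12 and 49 (log2 ratio of ATAS over ATAB 2.21), and COL9A1 had 0 reads in each adult library. COL2A1 and COL11A2 were thus abundant in the fetal library and low in the adults.

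**Figure D3:**
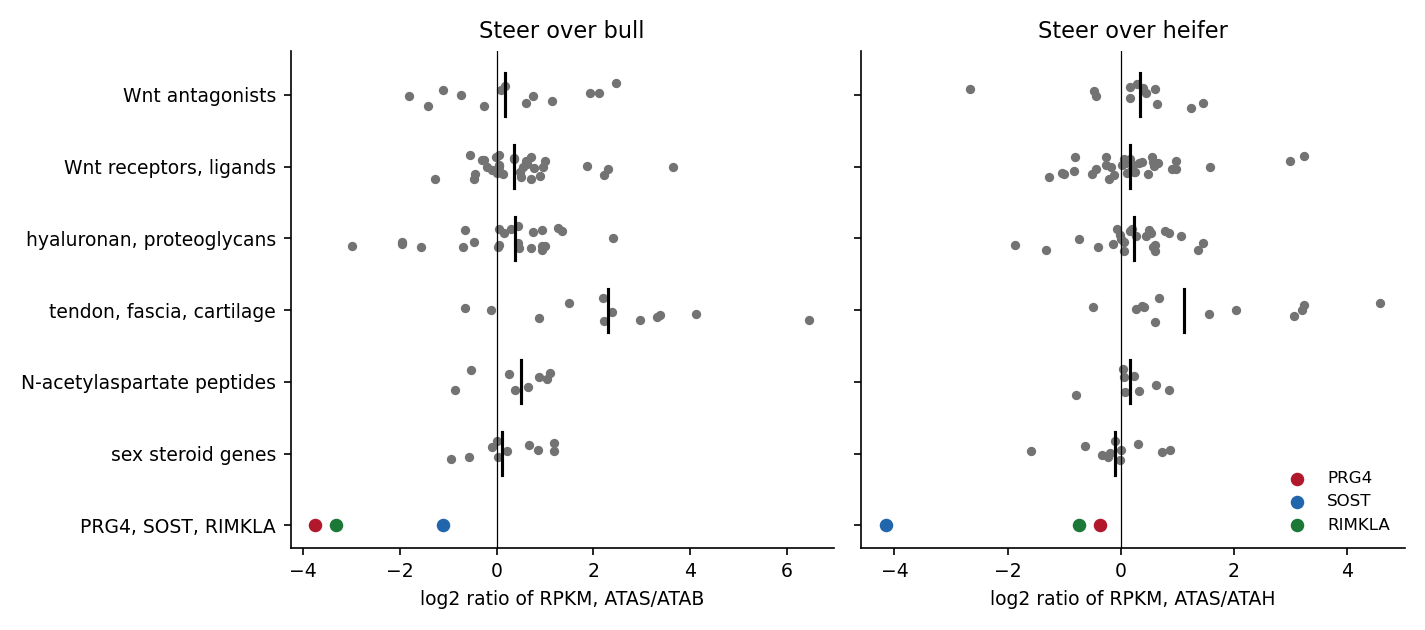
log2 ratio of RPKM, steer over bull (left) and steer over heifer (right), for genes of 6 lists with 10 or more reads in the pair (grey points, black bars at the median) and for the 3 genes (coloured). The tendon, fascia and cartilage list has its median at 2.30 against bulls, on the other side of 0 from PRG4 (-3.75).

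Mesothelium, another lining tissue, gave little signal. The 5 genes with an entry, of 12 listed, summed to between 3.42 RPKM (ATAB) and 6.36 RPKM (ATAS), and MSLN, which defines mesothelium, had 4 reads in fetuses, 2 in bulls, 16 in heifers and 6 in steers. One of the 5, GPM6A, was called higher in ATAS than in ATAB (log2 ratio 1.07), beside 11.7% of symbols, a call that was lost with TMM, and 0 were called between ATAS and ATAH.

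Among the partners of sclerostin, DKK1 was highest in heifers, as SOST was. DKK1, which blocks the same co-receptors, had 9 reads in fetuses, 29 in bulls, 51 in heifers and 8 in steers. Its levels were 0.618, 1.88, 3.43 and 0.539 RPKM, with heifers first, bulls second, and steers and fetuses lowest and close together. DKK1 was 6.36 times lower in ATAS than in ATAH (log2 ratio -2.67, interval -3.96 to -1.58). SOSTDC1, the closest relative of sclerostin, had 46 reads in ATFB (1.71 RPKM) and 0 in each adult library. The 95% interval of its log2 ratio of ATAS over ATFB had its upper end at -3.61.

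The co-receptors followed another order. LRP5 had 13.2 RPKM in fetuses, 23.5 in bulls, 30.9 in heifers and 36.6 in steers, and LRP4 had 0.856, 1.60, 1.03 and 2.05 RPKM. Both were highest in the steer library, where SOST was 17.7 times lower than in heifers. LRP6 had no named entry and was not analysed here.

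Other secreted Wnt and BMP antagonists were split. Of the 24 genes listed, 16 had an entry and 14 a read in ATAS or ATAB, with 3 called higher and 1 lower in ATAS, beside 11.7% and 2.51% of symbols. Higher were GREM1 (log2 ratio 2.47), a BMP antagonist, SFRP1 (2.12) and DKK2 (1.93), and lower was SFRP4, with 1940 reads in ATAS and 5395 in ATAB (-1.42). With TMM, 3 were higher and 3 lower. In ATAS against ATAH 2 were called higher, DKK3 (1.46) and DKK2 (1.25), and 1 lower, which was DKK1, beside 2.74% and 1.51% of symbols. Between ATAH and ATAB 2 were called higher, SFRP1 (2.56) and GREM1 (1.87), and 3 lower, SFRP4 (-2.07), DKK3 (-1.72) and FSTL1 (-1.18), beside 5.17% and 2.17% of symbols. None of these 5 had a ratio as large in size as that of SOST in the same pair (3.04).

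Of 50 Wnt ligands, receptors and effectors listed, 36 had an entry and a read in ATAS or ATAB, and 1 was called higher and 1 lower in ATAS, beside 11.7% and 2.51% of symbols, the latter being the ligand WNT2 (log2 ratio -1.27). Against heifers, 2 were called higher and 1 lower in steers, beside 2.74% and 1.51%, the latter the receptor FZD9 (-1.04). In heifers against bulls, 2 of 35 were called higher, FZD9 (1.55) among them, and 3 lower, with WNT2 (-1.84) and the receptor ROR1 (-1.45) among them, beside 5.17% and 2.17% of symbols. Larger ratios came from low counts: the ligand WNT16 had 0 reads in fetuses, 42 in bulls, 4 in heifers and 38 in steers, and RSPO1, which strengthens Wnt signals, had 4, 2, 0 and 24. AXIN2, a target of the pathway, had 3.27 RPKM in fetuses, 1.13 in bulls, 1.36 in heifers and 1.17 in steers. Its adult levels were close together, while SOST ranged from 3.72 to 65.9 RPKM. LGR5, of the same list, had 53 reads in fetuses, 4 in bulls, 25 in heifers and 14 in steers. Whether Wnt signalling followed SOST was not tested.

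Of the genes of the osteocyte, the cell known for sclerostin, some were near 0 and others were not. DMP1 had 0 reads in fetuses, 3 in bulls, 3 in heifers and 1 in steers, and PHEX had 0, 2, 2 and 0 reads. The heifer library thus held 657 reads of SOST beside 3 of DMP1. PDPN, which early osteocytes share with lymph vessels, had 2400 reads in fetuses, 356 in bulls, 629 in heifers and 868 in steers, an order unlike that of SOST. The 11 bone and osteocyte genes with an entry, of 19 listed, summed to 103 RPKM in fetuses, 42.5 in bulls, 60.1 in heifers and 66.6 in steers. Between ATAS and ATAB, 2 of 11 were called higher, BMP6 (log2 ratio 1.42) and PDPN (1.34), and 0 lower, beside 11.7% and 2.51% of symbols, and between ATAS and ATAH 0 were called.

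RIMKLB, the second ligase, was more abundant than RIMKLA in every library but the bull library, and in the adult libraries had the reverse order. The step between heifers and steers was within counting error for both genes. The log2 ratio of ATAS over ATAH was 0.24 (-0.03 to 0.52) for RIMKLB and -0.73 (-1.90 to 0.37) for RIMKLA. It had 2.43 RPKM in fetuses, 3.17 in bulls, 5.72 in heifers and 6.77 in steers. Its log2 ratio from ATAB to ATAS was 1.10 (0.77 to 1.43), which was called by library totals and not with TMM. RIMKLA made up the larger level of the pair in bulls, at 6.06 RPKM against 3.17, and the smaller in steers, at 0.604 against 6.77.

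FOLH1 and ASPA, which break the dipeptide and its precursor down, did not share RIMKLA's peak in bulls. FOLH1, the peptidase that splits N-acetylaspartylglutamate, had 18.1 RPKM in fetuses, 29.8 in bulls, 33.5 in heifers and 35.5 in steers. ASPA, which cleaves N-acetylaspartate, had 1.16, 2.27, 2.67 and 4.14 RPKM. Both were highest in the steer library. SLC13A3, a carrier of dicarboxylates that takes up N-acetylaspartate, had 0.45 RPKM in fetuses, 8.18 in bulls, 7.84 in heifers and 4.53 in steers (log2 ratio of ATAS over ATAB -0.85). ACY1, an enzyme that removes acetyl groups from amino acids, had 9.94, 18.8, 12.6 and 13.1 RPKM (-0.52). SLC13A3 and ACY1 had their highest level in bulls, but by less than RIMKLA. Their log2 ratios of ATAH over ATAB were -0.06 and -0.58, beside -2.59 for RIMKLA. Neither was called between ATAS and ATAB by library totals. NAT8L, which makes N-acetylaspartate, had no named entry and was not analysed here. Of 14 genes listed for these compounds, 10 had an entry, and RIMKLB and the peptidase NAALAD2 (log2 ratio 1.04) were called higher in ATAS than in ATAB and 0 lower, beside 11.7% and 2.51% of symbols, which became 0 higher and 1 lower, SLC13A3, with TMM. Against heifers, 0 were called.

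Of 24 genes of aspartate and glutamate metabolism, 15 had an entry, and 3 were called higher and 1 lower in ATAS than in ATAB, beside 11.7% and 2.51% of symbols. ASS1, which joins aspartate to citrulline, had 86.6 RPKM in ATAS and 25.7 in ATAB (log2 ratio 1.75), and GLUL, glutamine synthetase, had 664 and 291 (1.19). GPT, an alanine aminotransferase, was the lower one (-1.24). With TMM 2 were called higher and 2 lower. Between ATAS and ATAH 0 were called.

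ESR1, the main estrogen receptor, had 1.54 RPKM in fetuses, 9.09 in bulls, 6.97 in heifers and 6.13 in steers. Of 28 sex steroid receptor and enzyme genes, 13 had an entry, 2 were called higher in ATAS than in ATAB and 0 lower (0 and 1 with TMM), beside 11.7% and 2.51% of symbols, and 0 were called between ATAS and ATAH.

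The libraries had the makeup of fat, with differences in other cell types whose part in the levels of PRG4, SOST and RIMKLA was not tested. The 13 adipocyte genes with an entry, of 20 listed, summed to 1506 RPKM in fetuses, 10808 in bulls, 10628 in heifers and 8537 in steers, and none was at 0 reads in any library. Among them AGPAT2 (log2 ratio -2.10), CIDEA (-1.92) and DGAT2 (-1.31), of lipid synthesis and the lipid droplet, were called lower in ATAS than in ATAB, and LIPE, hormone-sensitive lipase, higher (1.02), beside 2.51% and 11.7% of symbols. With TMM the list had 5 lower and 0 higher. Leukocyte genes (15 of 19 with an entry) summed to 335, 849, 1117 and 2001 RPKM in ATFB, ATAB, ATAH and ATAS, and 6 were called higher in ATAS than in ATAB and 0 lower (3 and 0 with TMM), beside 11.7% and 2.51% of symbols. CD74 alone made up 206, 624, 900 and 1663 RPKM of the leukocyte sums. Vessel genes (8 of 12) summed to 650, 530, 735 and 987 RPKM. Leukocyte and vessel sums were thus highest in the steer library, where the adipocyte sum was the lowest of the adults. DGAT2 (3224, 2367 and 1296 RPKM in ATAB, ATAH and ATAS) and AGPAT2 (1638, 1244 and 382) were large parts of that sum. ADIPOQ (982, 1150 and 1498 RPKM) and PLIN1 (520, 834 and 1005) were instead highest in steers. What the sum says of adipocyte number was not tested. Nerve genes (13 of 17) summed to 207, 288, 327 and 309 RPKM, muscle genes (8 of 20) to 31.5, 67.5, 58.99 and 59.12, and skin genes (9 of 16) to 19.3, 1.02, 0.821 and 0.719. Skin's keratin gene KRT17 and the cornified layer gene LOR had 0 reads in ATAB and ATAH.

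PRG4 and SOST differed from the fetal library in opposite directions. Against ATFB, PRG4 had log2 ratios of -2.41 in bulls, -5.80 in heifers and -6.16 in steers, beside all-entry medians of -0.17, 0.11 and 0.13. By the read test, 22.6% of entries were called in ATAB against ATFB (9.51% higher, 13.1% lower), 23.7% in ATAH (13.9% higher, 9.83% lower) and 26% in ATAS (15.5% higher, 10.5% lower). SOST had log2 ratios of 3.49, 6.52 and 2.38 in the same order, and RIMKLA of 1.93, -0.66 (-1.55 to 0.20) and -1.40. PRG4 was thus lower in each adult library and SOST higher in each, while RIMKLA was higher in 1 and lower in another. These ratios share the fetal library. Of the 16 tendon, fascia, cartilage and synovial lining genes, 8 were called lower and 1 higher than in ATFB in bulls (beside 10% and 17% of symbols), 9 and 1 in heifers (8.45% and 24.2%) and 8 and 2 in steers (7.57% and 27.8%). Their median log2 ratios were -3.05, -3.55 and -1.20. THBS4, a matrix protein of tendon, had 5226 reads in fetuses, 168 in bulls, 425 in heifers and 1257 in steers. The median of the list was thus below 0 in each adult library, as the ratio of PRG4 was, but nearest to 0 in steers, where that of PRG4 was farthest from it.

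Treating the 3 adult libraries as the spread, edgeR's quasi-likelihood test with Benjamini-Hochberg adjustment called 18.2% of 25584 entries between ATFB and the adults at a false discovery rate of 0.05 (8.39% higher and 9.83% lower in ATFB). In this fit the fetal minus adult log2 difference was 3.64 for PRG4, -5.07 for SOST and -0.78 for RIMKLA. Without ATAB, that of PRG4 became 6.10 and that of RIMKLA turned to 1.11. Without ATAH, that of SOST became -3.09. These differences are given as a description, with no test: the spread is that between bulls, heifers and steers, the same differences that chose the genes, and the fetal side is 1 library.

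The genes most like each of the 3 were found by the root mean square difference of log2(RPKM + 1) over the 4 libraries, each gene centred on its own mean, among 3948 symbols. The measure is over 4 libraries only and is given as a description. For PRG4 they were KCNK12 (distance 0.70), KERA (0.81), LEPREL4 (1.06), a collagen-modifying protein of the leprecan family, MEG3 (1.08), a maternally expressed noncoding RNA, and ULBP1 (1.09), a ligand of an immune receptor. KCNK12 had 21.1 RPKM in fetuses, 5.65 in bulls, 0.306 in heifers and 0.651 in steers, and KERA 49.4, 14.8, 1.39 and 3.83. Both shared the drop from fetus to bull to the other adults, but KCNK12 and KERA had their lowest level in heifers.

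For SOST the most alike were CP (0.66), the copper carrier ceruloplasmin, CYP1A1 (0.86), a cytochrome of xenobiotic metabolism, CKB (0.90), brain-type creatine kinase, HMGCS1 (0.91) and LOC506828 (1.03), a relative of alpha-2-macroglobulin. CP had 2.34 RPKM in fetuses, 7.95 in bulls, 40.2 in heifers and 6.98 in steers. CYP1A1 had 1.99, 12.5, 25.8 and 6.11 RPKM, and CKB had 20.2, 192, 315 and 105. Each of these 3 was highest in heifers, second in bulls, then in steers, and lowest in fetuses, the order of SOST. HMGCS1 shared this order, and LOC506828 did not. LOC506828 had 1.35 RPKM in fetuses, 2.62 in bulls, 36.3 in heifers and 10.4 in steers.

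For RIMKLA they included PENK (0.21), the precursor of enkephalins, VCAN (0.27), the tight junction protein CLDN4 (0.39) and the proliferation marker MKI67 (0.42). PENK had 16 reads in fetuses, 82 in bulls, 19 in heifers and 2 in steers. VCAN had 12.1 RPKM in fetuses, 49.8 in bulls, 8.33 in heifers and 6.28 in steers, the same order as RIMKLA at several times its level. These 4 were highest in the bull library. With a pseudocount of 0.1 in place of 1, 3 of the 5 genes stayed for each of PRG4, SOST and RIMKLA.

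**Figure D4:**
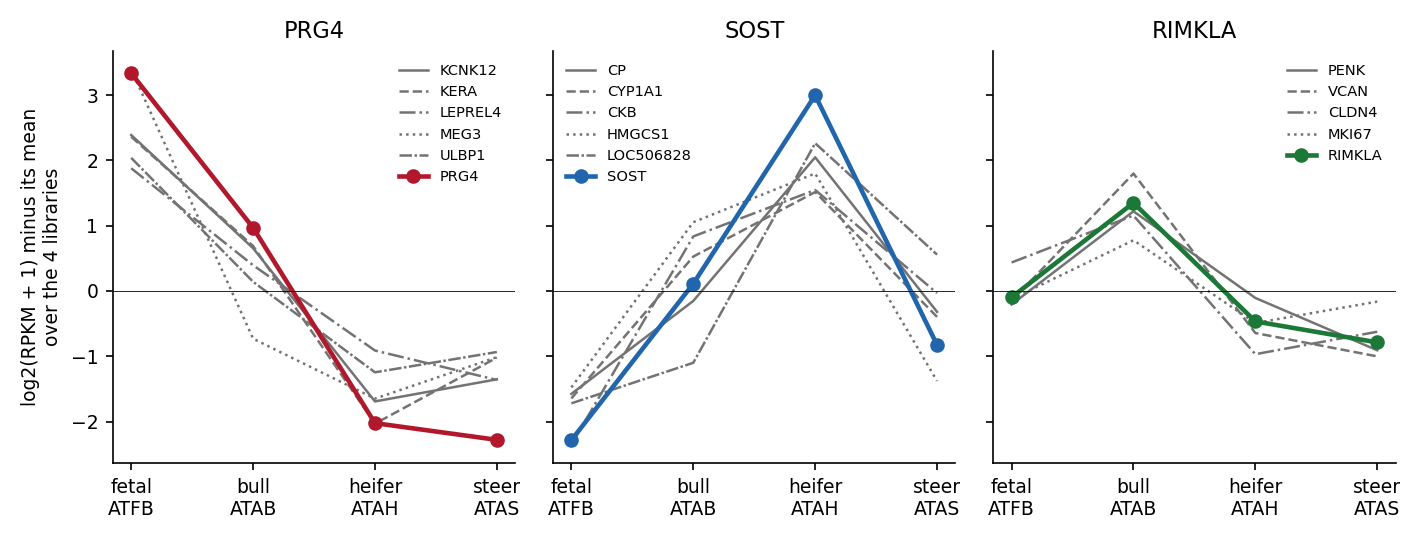
log2(RPKM + 1) in the 4 libraries minus the gene's mean over them, for PRG4, SOST and RIMKLA (coloured) and the symbols with the nearest pattern (grey), 5 for PRG4, 5 for SOST and 4 for RIMKLA. The genes nearest to PRG4 are highest in the fetal library, those nearest to SOST in the heifer library and those nearest to RIMKLA in the bull library.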

How the data were processed

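RNA from subcutaneous fat, pooled from 5 animals per group, was sequenced as 1 Illumina library per group. The study's methods describe alignment of cleaned, non-redundant reads with SOAPaligner to the masked bosTau7 genome (the submitters' notes also name CASAVA). Per the file headers, however, the authors deposited raw counts of reads that matched once for each UniGene sequence, and how these were obtained from the alignment is not given in the sources used here. They also deposited RPKM and the percent of each sequence covered. RPKM recomputed from the counts differed by at most 5.94e-08 of the value. PRG4, SOST and RIMKLA, and the gene lists, were chosen with earlier results of these data known. Symbols came from the sequence headers (5655 of 36373 entries) and, for 108, from a full name, and for each symbol the entry with most reads was taken.

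Ratios used library totals. A count of 0 was read as 3, and intervals cover counting error only: no molecular identifiers are named, so reads need not be separate molecules. edgeR 4.0.16 and DESeq2 1.42.0 (R 4.3.3), scipy 1.17.1 and blastn 2.17.0 were used. Tests were checked on simulated data. Named genes were the 3 genes, direct partners fixed by name (ESR1 among them), up to 3 called genes per list and direction with 100 or more reads, the 5 most alike and the neighbours in the ranking. TPR, AXIN2, LGR5, COMP, HTRA1, MATN2, WNT16, RSPO1, SLC13A3, ACY1, THBS4, COL11A2, ADIPOQ and list genes at or near 0 reads were added after their values were seen. Proteins and promoters were not used here, and the planned protein search was not run. Some values of the named genes are not reported here.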

Additional observations from a re-analysis of the deposited data

How the results depend on the processing

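No paired analysis was possible because each group has 1 library and the labels give no numbers that link libraries. PRG4's log2 ratio moved past its counting interval in 9 cases and kept its direction in all. ATAB/ATFB became -2.23 (TMM), -2.64 (ACTB scaling) and -2.29 (upper quartile). With ACTB, ATAH/ATFB was -6.07 and ATAS/ATFB -6.41. ATAH/ATAB was -3.67 (TMM) and -3.66 (upper quartile), and ATAS/ATAB -4.04 and -4.07. Adding all entries of a gene changed nothing, since each had 1.

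Counts of entries called, higher then lower, moved as follows. With 1 entry per symbol they were 891 and 529 (ATAB/ATFB), 1289 and 449 (ATAH/ATFB), 1472 and 402 (ATAS/ATFB), 286 and 123 (ATAH/ATAB), 621 and 131 (ATAS/ATAB), and 144 and 82 (ATAS/ATAH), since fewer entries were tested. With a log2 ratio of 2 or more they were 1530 and 1811, 2424 and 1417, 2762 and 1605, 381 and 158, 583 and 206, and 149 and 182 in that order. With edgeR's exact test at an assumed biological coefficient of variation of 0.4 they were 98 and 86, 142 and 87, 184 and 94, 9 and 4, 3 and 2, and 5 and 7. TMM gave 693 and 728 for ATAH/ATAB and 1127 and 1162 for ATAS/ATAB, against 1403 and 416, and 2313 and 629.

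With TMM, list counts became, for ATAS/ATAB, 3 lower Wnt antagonists, 2 higher lubricin partners, 0 higher and 1 lower N-acetylaspartate genes, 2 lower aspartate genes, 0 higher and 1 lower sex steroid genes, 0 higher mesothelium genes, 0 higher and 5 lower adipocyte genes, and 3 higher leukocyte genes. For ATAH/ATAB they became 1 higher Wnt receptor gene, 5 lower lubricin partners, 2 lower tendon genes (also 2 with ACTB), and 0 higher and 2 lower aspartate genes, and for ATAS/ATAH 2 lower Wnt receptor genes and 1 higher leukocyte gene. The cause was not tested.

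Between ATFB and the adults, leaving out 1 adult library gave edgeR quasi-likelihood adjusted p from 0.000574 (without ATAB) to 0.116 (without ATAH) for PRG4, 0.00953 (without ATAS) to 0.0680 (without ATAB) for SOST and 0.225 to 0.518 for RIMKLA, whose direction reversed without ATAB (0.225). The entries called ranged from 2321 (without ATAH) to 7123 (without ATAB), against 4661. These fits rest on 1 fetal library and on a spread between the libraries that chose the genes, so no test of the 3 genes is read from them. DESeq2, library totals and no filter gave differences of 3.66, 3.77 and 3.63 for PRG4. They gave -5.06, -5.15 and -5.08 for SOST, and -0.77, -0.69 and -0.79 for RIMKLA. With a pseudocount of 0.1, 3 of the 5 most alike genes stayed for PRG4, 3 for SOST and 3 for RIMKLA. With 12 reads in ATAS and 20 in ATAH, the interval of RIMKLA between these libraries included no difference.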
